A study of Manis javanica with 3 samples.

Results

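Lipases and phospholipases are the enzymes that cut fatty acids or head groups from neutral fats and membrane lipids. The genes described here are those whose best match in the NR protein database names a lipase, a phospholipase or a colipase. The deposited annotation held 78 such genes, and 76 of them were among the 24220 genes with expression values, while the genes annotated as cytosolic phospholipase A2 beta and as a further copy of lipase member M were not analysed here. The word also brought in partner and inactive proteins, so that 11 of the 76 genes were maturation factors, a receptor, an inhibitor-like protein, activating proteins and proteins named as inactive. The other 65 were sorted by the substrate class in the product name into 12 classes, among them 10 secreted and 4 cytosolic phospholipases A2, 8 phospholipases D, 11 neutral lipid lipases and 3 lipoprotein lipases. The phosphoinositide-specific phospholipases C are annotated as phosphodiesterases, which the word does not catch, and they are given separately at the end.

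RNA was taken from liver, salivary glands and small intestine of 1 adult female Manis javanica (the Malayan pangolin, a toothless mammal that eats ants and termites), and each tissue gave 1 library. By the methods of the study the animal was a wild one that died during rescue, was dissected after natural death and had ants in its stomach. No library has a replicate, so every ratio compares 2 libraries and its interval covers counting error only. Since the tissues were taken whole, fewer cells of a type and less RNA per cell cannot be told apart. The fragments counted on genes summed to 10158924 in small intestine, 8318686 in salivary glands and 14568778 in liver. The labels were set against marker genes. Of 9 hepatocyte markers, 9 had an FPKM above 1 in liver (FPKM is the fragments on a gene relative to its length and to the mapped fragments). In the library labelled small intestine, 2 of 11 enterocyte markers had an FPKM above 1, VIL1 at 24.0 (25.7 in salivary glands and 21.2 in liver) and SLC5A1 at 1.94, and so did 3 of 5 Paneth and goblet cell markers, among them MUC2 with 177 fragments against 1 and 1 in the others. In it FABP1, FABP2 and LCT, genes of the absorptive cell, had 0 fragments and sucrase-isomaltase 2. The first 3 had 0 fragments in salivary glands and liver as well, also FABP1, which is annotated as the liver form. For them a silent gene and a gene that was not counted cannot be told apart. Other enterocyte markers could be counted, with APOB at 33326, MTTP at 880, ALPI at 306 and ANPEP at 167 fragments in liver. In the library labelled small intestine these had 3, 20, 4 and 26 fragments. SLC5A1 went the other way, with 63 fragments there and 24 in liver. In the library labelled small intestine 12 of 13 gastric gland markers were above an FPKM of 1. Their summed FPKM was 110233, against 83.7 in salivary glands and 0.514 in liver. This library is called small intestine here after its label alone, and each tissue name stands for its 1 library. Of 7 salivary gland marker genes, 3 were above an FPKM of 1 in salivary glands and 4 in small intestine, with aquaporin 5 at 2.29, 94.3 and 24.7 and cystatin C at 199.8, 185.8 and 54.7 in small intestine, salivary glands and liver.

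As background, dietary fat is split in the gut lumen by gastric lipase and by pancreatic lipase with its cofactor colipase, while bile salt-activated lipase and secreted phospholipase A2 act on cholesteryl esters and phospholipids. In the bloodstream lipoprotein lipase and hepatic lipase take fatty acids from lipoproteins. Inside cells, PNPLA2, hormone-sensitive lipase and monoglyceride lipase strip stored fat in turn, and phospholipases of the A, B, C and D types cut membrane lipids at different bonds, some releasing signals and some acting in the lysosome.

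The genes of the family were a small part of each library. Together they held 0.135% of the FPKM in small intestine, 0.0989% in salivary glands and 0.104% in liver. A few genes made up most of that. In small intestine PLA2G1B, PNPLA2 and the next gene, LPL, made up 70.1% of the family's summed FPKM of 962, and PLA2G1B alone 47.5%. In salivary glands PLD3 made up 33.9% of 590, and in liver PNPLA2 made up 25.8% of 649. The members with an FPKM above 1 numbered 45, 36 and 42 of 76 in small intestine, salivary glands and liver, that is 59.2, 47.4 and 55.3%, beside 59.4, 56.3 and 57.02% of all genes. There were 29 members above 1 in all 3 libraries (38.2%, against 46.9% of all genes) and 56 in at least 1 (73.7% against 69.3%). No fragment was counted in any library for 9 members (11.8% against 13.04% of all genes).

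**Figure D1:**
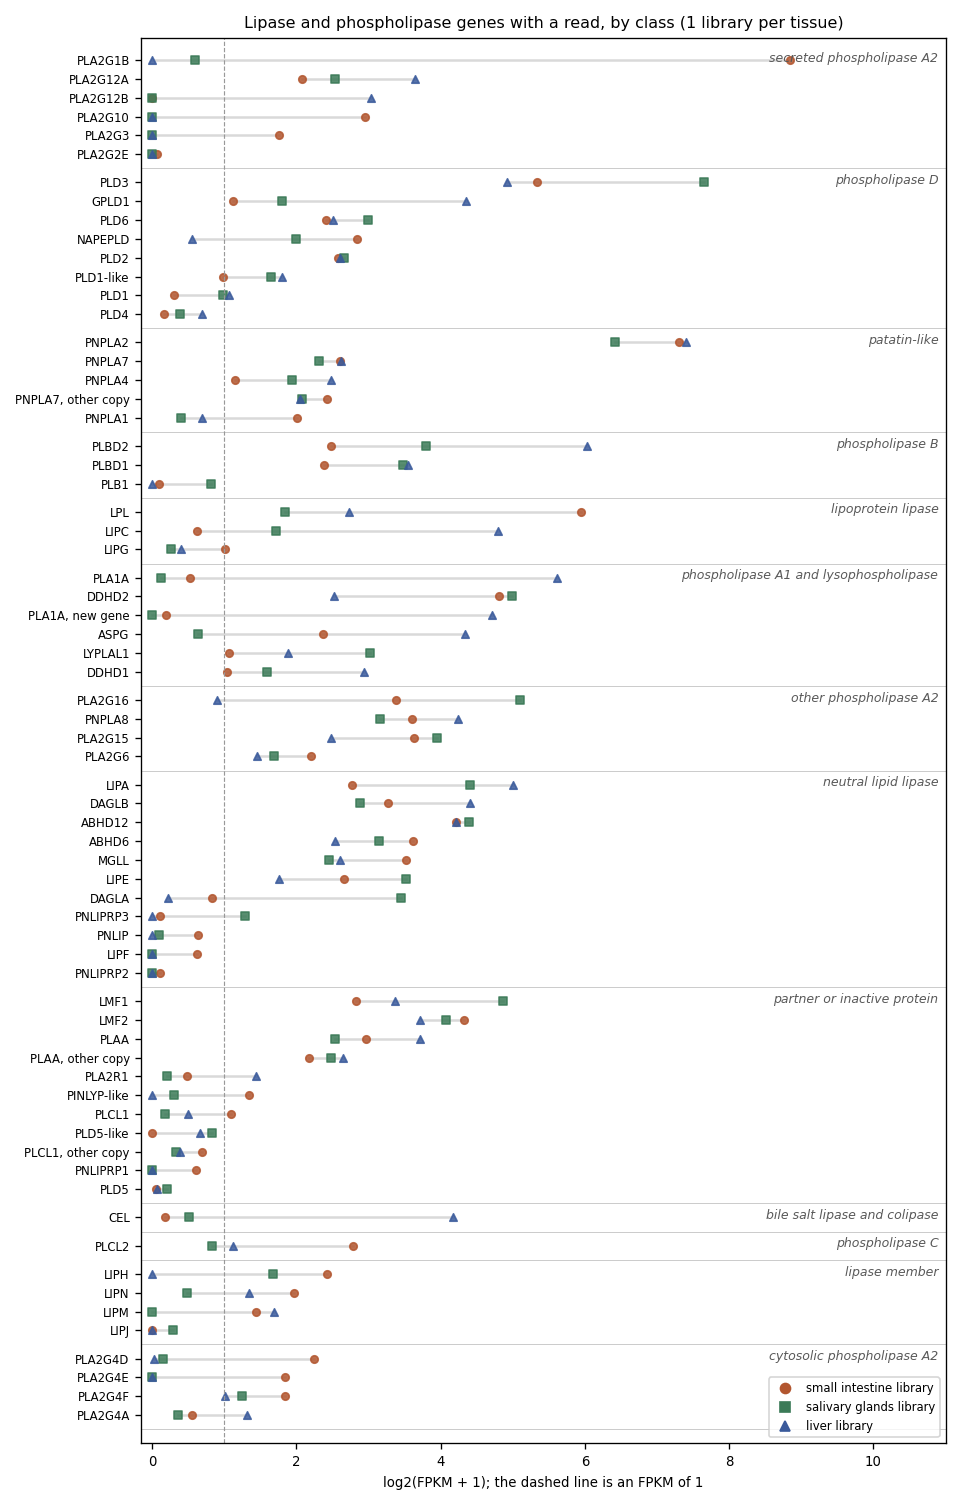
Level of the 67 members with a fragment in any library, as log2(FPKM + 1) on the horizontal axis, grouped by class and ordered by highest level. Each symbol is 1 library (circle, small intestine; square, salivary glands; triangle, liver), so there are no error bars, and the dashed line marks an FPKM of 1. PLA2G1B reached an FPKM of 457 in small intestine and 0 in liver, while ABHD12 lay between 17.6 and 19.97 in the 3 libraries.

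For calls between 2 libraries, counts were scaled by TMM (a factor that corrects for a few very abundant genes) and tested with the MA-plot method, taking a q-value under 0.005 and a fold of at least 2. The scaling moved log2 ratios of all genes by 0.24 for small intestine over liver, 0.47 for small intestine over salivary glands and -0.22 for salivary glands over liver, and the ratios given are after that shift. The FPKM values do not have it.

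Between small intestine and liver, 24 of the 66 members tested were called higher in small intestine (36.4%, where 20.9% of all 20662 genes tested were called that way) and 19 higher in liver (28.8%, where 18.8% of all genes were). The split of all genes turned with the scaling, and by library size alone the 2 shares of all genes were 18.1% and 23.3%, in the same order. The members called then numbered 20 and 20.
Between small intestine and salivary glands, 14 of 66 members were higher in small intestine (21.2%, against 15.8% of 20140 genes) and 16 higher in salivary glands (24.2%, against 12.2% of all genes). By library size alone the shares of all genes were 11.7% and 22.0%, and those of the members 13 and 19 genes. Between salivary glands and liver, 12 of 60 members were higher in salivary glands (20%, against 19.0% of 20404 genes) and 16 higher in liver (26.7%, against 19.6% of all genes). By library size alone the shares of all genes were 22.5% and 16.7%.

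The median ratios of the family as a whole were small and moved with the value set for a count of 0. With a count of 0 set to 3 counts, the median log2 ratio of the members was 0.03 for small intestine over liver, 0.31 for small intestine over salivary glands and -0.15 for salivary glands over liver, beside 0.04, 0.03 and 0.01 for all genes. With 1 in place of 0, as in the calls, the medians were 0.24, 0.23 and -0.06, beside 0.04, 0.09 and 0.01 for all genes. In the first pair 15 of 66 members had a count of 0. With 3 counts in place of 0, the members were spread more widely than all genes in 3 of 3 comparisons. Of them 68.2, 63.6 and 53.3% differed by at least 2-fold, beside 47.7, 39.2 and 47.2% of all genes. The 3 comparisons share libraries. Over them, 12 members were called higher in small intestine than in both others (17.9% of the 67 with a fragment, against 9.75% of all genes with one), 8 in salivary glands (11.9% against 6.75%) and 12 in liver (17.9% against 12.6%). Another 16 members had no call in any pair (23.9% against 45.5%). The calls depend on the number of fragments, which differs between these genes and all genes.

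**Figure D2:**
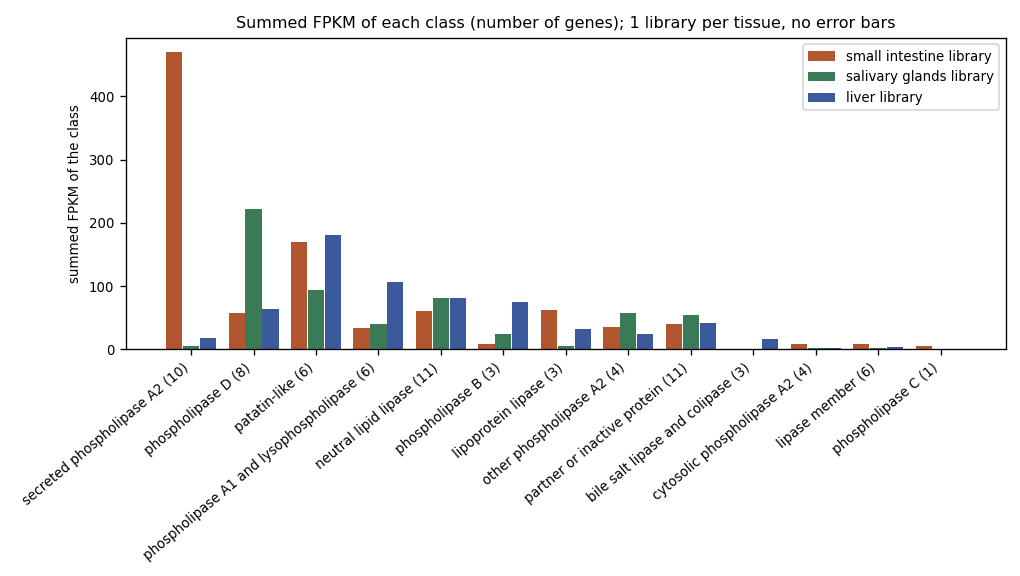
Summed FPKM of each class in the 3 libraries, with the number of genes in parentheses and bars starting at 0. There is 1 library per tissue and so no error bar. Secreted phospholipases A2 stood at 470 in small intestine, phospholipases D at 222 in salivary glands and patatin-like genes at 181 in liver.

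Secreted phospholipases A2 are small calcium-dependent enzymes released into the gut lumen, skin or tissue fluid. PLA2G1B (gene9483), the phospholipase A2 of pancreatic juice, was the member with the highest level of the family. It had 1422 fragments in small intestine, 3 in salivary glands and 0 in liver, or an FPKM of 457 (95% interval of the counts 434 to 482), 0.513 (0.106 to 1.5) and 0. The gene lies at 294650 to 301556 on the minus strand of scaffold NW_016533652.1 of the authors' annotation, whose build is not given in the sources used here. Small intestine was 536-fold higher than salivary glands (95% interval 183 to 2602) and at least 802-fold higher than liver, and these were calls. The salivary level was 0.112% of the small intestine level by FPKM, on 3 salivary fragments. For 10 genes with an FPKM above 1000 in small intestine and almost no level in liver the same share ran from 0.0311 to 0.0977%. Given the interval of the salivary level, the share of PLA2G1B could not be told apart from that range.

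Genes of the pancreatic acinar cell, the known source of PLA2G1B in pancreatic juice, were read beside it. Of 12 acinar marker genes, 7 were above an FPKM of 1 in small intestine, 4 in salivary glands and 3 in liver, with summed FPKMs of 131, 64.4 and 22.8. The marker with the highest FPKM was GP2, a membrane protein of secretory granules, at 80.1, 51.9 and 0.0243, and the transcription factor PTF1A had 0 fragments in each library. The part of pancreatic tissue in the level of PLA2G1B was not tested.

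A further pair of secreted enzymes were counted in small intestine alone. PLA2G10, an enzyme of digestive and other epithelia, had 16 fragments and an FPKM of 6.73 there and 0 fragments in the other libraries, a level at least 9.03-fold that of liver. PLA2G3, a secreted enzyme related to that of bee venom, had 62 fragments and an FPKM of 2.38 there and 0 in the other libraries. Liver had 2 group XII genes. PLA2G12B, a protein without catalytic activity that takes part in lipoprotein secretion, had 209 fragments and an FPKM of 7.20 in liver and 0 fragments in both others, so that liver was at least 41.2-fold higher than small intestine and at least 46.3-fold higher than salivary glands. PLA2G12A had an FPKM of 3.23 in small intestine, 4.77 in salivary glands and 11.5 in liver, and liver was called 2.83-fold higher than small intestine (2.36 to 3.41). The group II genes found and PLA2G5 were almost silent. No member was named PLA2G2A here, a gene that the study lists as expressed in small intestine alone. PLA2G2E had 2 fragments in small intestine, and PLA2G2C, PLA2G2F, PLA2G2D and PLA2G5, which lie next to one another at 620082 to 704938 on scaffold NW_016534243.1, had 0 fragments in each library, as far as 0.295, 0.361 and 0.206 CPM (counts scaled to equal totals, at 3 counts) allow.

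Cytosolic phospholipases A2 release arachidonic acid or transfer acyl groups inside cells, and their levels were low. PLA2G4D had 139 fragments (FPKM 3.74) in small intestine, 6 in salivary glands and 1 in liver. Its neighbour at 358612 to 410683 on the same scaffold, PLA2G4E, an enzyme that makes N-acylphosphatidylethanolamines, had 115 fragments (FPKM 2.60) in small intestine and 0 in both others. Both genes were called higher in small intestine against both other libraries, PLA2G4D by 26.2-fold over salivary glands (11.7 to 72.6) and PLA2G4E by at least 43.3-fold. PLA2G4F was present in each library, at an FPKM of 2.57, 1.38 and 1.02 in small intestine, salivary glands and liver. PLA2G4A, the main enzyme of arachidonic acid release, followed another order, with FPKMs of 0.464, 0.282 and 1.49, and was called 2.36-fold higher in liver than small intestine (1.27 to 4.73) on 52 and 13 fragments.

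The other phospholipases A2 were above an FPKM of 1 in each library, with the exception of PLA2G16 in liver. PLA2G16, a fat-cell and lens enzyme anchored in membranes, had 99, 686 and 19 fragments and FPKMs of 9.38, 33.4 and 0.870 in small intestine, salivary glands and liver. Salivary glands was 6.13-fold higher than small intestine (4.96 to 7.64) and 54.4-fold higher than liver (34.5 to 90.9). PLA2G15, the lysosomal enzyme, was 2.97-fold higher in salivary glands than liver (2.52 to 3.51), at FPKMs of 11.4, 14.4 and 4.58 in the same order of libraries. PNPLA8, the calcium-independent enzyme of mitochondria, had FPKMs of 11.1, 7.92 and 17.9, and PLA2G6 3.60, 2.22 and 1.73, and neither had a call in any pair.

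Phospholipases A1 and lysophospholipases were 6 genes, of which 5 were called higher in liver than small intestine and 1 lower, where 18.8 and 20.9% of all genes were, and 4 higher in liver than salivary glands and 2 lower, where 19.6 and 19.0% were. A pair of the 5 may be 1 gene. PLA1A, a secreted enzyme that cuts phosphatidylserine, had 4 fragments in small intestine, 1 in salivary glands and 807 in liver, where its FPKM was 47.9 (44.7 to 51.4). Liver was 119-fold higher than small intestine (46.4 to 438) and 536-fold higher than salivary glands (95.9 to 21196). A new gene joined by the authors from reads, with PLA1A as its best match but on another scaffold, had 1, 0 and 262 fragments and an FPKM of 25.1 in liver. Fragments of 1 gene could be split between the pair, so that the level of PLA1A is uncertain. ASPG, annotated as a 60 kDa lysophospholipase, had FPKMs of 4.15, 0.555 and 19.2 in small intestine, salivary glands and liver, and liver was 26.6-fold higher than salivary glands (17.1 to 43.8). DDHD2, an intracellular enzyme that also cuts triglycerides, went the other way, at 26.96, 30.9 and 4.72, and was 6.01-fold higher in small intestine than liver (5.30 to 6.84). LYPLAL1 was highest in salivary glands, with an FPKM of 7.11 against 1.08 and 2.67, and its call for liver over small intestine lay at the threshold (2.002-fold). DDHD1 was highest in liver at 6.63, with 1.06 and 2.02 in the others.

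Phospholipase B genes comprised a pair of lysosomal proteins and 1 brush-border enzyme. PLBD2 had 100, 379 and 3070 fragments and FPKMs of 4.59, 12.9 and 64.3 in small intestine, salivary glands and liver, so that each library differed from the next, with liver 18.1-fold higher than small intestine (14.9 to 22.4) and 5.38-fold higher than salivary glands (4.83 to 6.0). PLBD1 was alike in salivary glands and liver, at 10.2 and 10.7 (ratio 1.03, interval 0.837 to 1.26), and was called 2.43-fold lower in small intestine (1.83 to 3.28) than in liver. PLB1, the membrane-bound enzyme of the intestinal brush border, had 3 fragments in small intestine, 31 in salivary glands and 0 in liver. The FPKM was 0.0664, 0.755 and 0, below 1 in each, and salivary glands was 9.14-fold higher than small intestine (2.85 to 46.7).

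Phospholipases D were led by PLD3, a protein of the endolysosome that is now known to digest single-stranded DNA. It had 677 fragments in small intestine, 4519 in salivary glands and 1043 in liver, or FPKMs of 39.2 (36.3 to 42.2), 200.4 (194.6 to 206.4) and 29.3 (27.6 to 31.2). Salivary glands stood 5.90-fold above small intestine (5.44 to 6.41) and 6.52-fold above liver (6.10 to 6.98). Small intestine and liver differed by 1.10-fold (0.996 to 1.21). PLD3 made up 90.4% of the summed FPKM of its class in salivary glands. GPLD1, an enzyme of blood plasma that frees proteins from their glycolipid anchor, was a liver gene by level, with FPKMs of 1.17, 2.48 and 19.5 and a ratio of liver to small intestine of 15.4 (11.5 to 21.2). NAPEPLD, which makes anandamide and related amides, had its lowest level in liver, at 6.18, 2.99 and 0.465. Small intestine exceeded liver by 14.2-fold (6.80 to 34.2) on 67 and 8 fragments. PLD6, an enzyme of the mitochondrial surface, had FPKMs of 4.31, 6.99 and 4.70, and PLD2, a signalling enzyme, 4.97, 5.32 and 5.07. Neither had a call.

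Patatin-like genes were dominated by PNPLA2, the enzyme that takes the first fatty acid from stored triglyceride. Its FPKM was 156 (151 to 162) in small intestine, 84.3 (80.9 to 87.9) in salivary glands and 167 (163 to 171) in liver, on 3281, 2279 and 7063 fragments, and it made up 92.0, 89.1 and 92.5% of the class. Liver was called 2.06-fold higher than salivary glands (1.96 to 2.16), while the ratio of liver to small intestine was 1.27 (1.22 to 1.33) and not a call. PNPLA7, a lysophospholipase, was counted on 2 genes on different scaffolds, between which fragments could be split, at FPKMs of 3.15 to 5.14 with no call. PNPLA4 had an FPKM of 1.22 in small intestine, 2.83 in salivary glands and 4.57 in liver. PNPLA1, a skin lipid enzyme, was highest in small intestine at 3.02, against 0.321 and 0.611. The gene annotated as PNPLA3 had 0 fragments in each library.

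The lipases of the bloodstream split between the libraries. LPL, lipoprotein lipase, had 1979 fragments in small intestine, 96 in salivary glands and 266 in liver, or FPKMs of 60.8 (58.2 to 63.6), 2.58 (2.09 to 3.15) and 5.62 (4.96 to 6.33). Small intestine was 12.6-fold above liver (11.1 to 14.4) and 23.3-fold above salivary glands (18.99 to 28.9). LIPG, the endothelial enzyme, showed the same order at a far lower level, with FPKMs of 1.01, 0.200 and 0.322 on 33, 9 and 18 fragments, and was called 3.10-fold higher in small intestine than liver (1.70 to 5.85). LIPC, the hepatic enzyme, had 3, 26 and 544 fragments and an FPKM of 0.544 (0.112 to 1.59), 2.29 (1.496 to 3.36) and 26.6 (24.4 to 29.0). Liver was 107-fold above small intestine (36.5 to 521) and 13.9-fold above salivary glands (9.38 to 21.5).
Lipoprotein lipase is made by fat and muscle cells and macrophages. Adipocyte markers had a summed FPKM of 13.1, 26.6 and 12.2 in small intestine, salivary glands and liver. Adiponectin had 0, 9 and 0 fragments, leptin 0 in each, CIDEC 100, 36 and 4 and FABP4 9, 114 and 0. PLIN1, at FPKMs of 3.88, 4.28 and 4.97, and RETN, at 2.60, 2.06 and 7.17, were highest in liver. The genes annotated as CIDEA had 1, 0 and 0 fragments and 2, 1 and 0. Skeletal muscle markers summed to 26.6, 29.6 and 0.0329, with CKM at 24.8 in small intestine and ACTA1 at 26.8 in salivary glands, and macrophage markers to 30.1, 22.2 and 373. The part of any of these cells in the level of LPL was not tested.

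**Figure D3:**
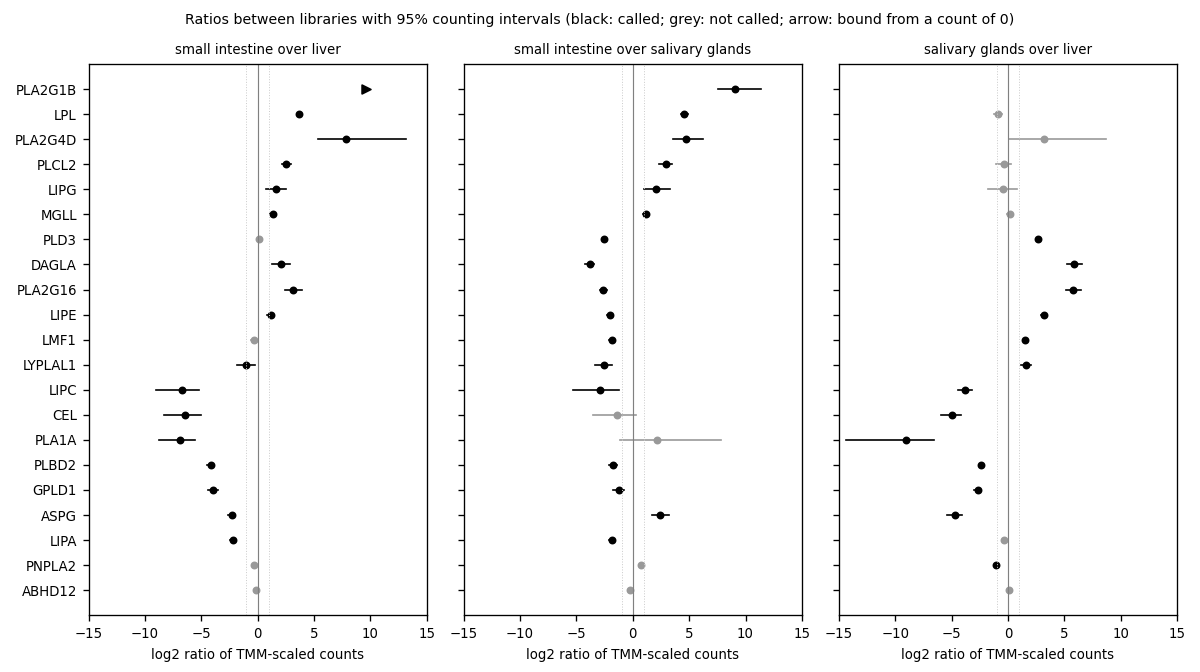
Log2 ratios of TMM-scaled counts for 21 genes in the 3 pairs of libraries, first over second. Lines are 95% counting intervals, not replicate error, black marks calls and grey no call, and the arrow is a lower bound from a count of 0. PLA2G1B, LPL and PLA2G4D lay to the right against both libraries, PLD3, DAGLA and PLA2G16 stood on the salivary gland side, and LIPC, CEL, PLA1A and PLBD2 on the liver side.

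Of the enzymes that digest fat in the gut lumen, PLA2G1B in small intestine and CEL in liver had 1422 and 582 fragments, while gastric and pancreatic lipase and colipase had few or none. LIPF, gastric lipase, had 5, 0 and 0 fragments in small intestine, salivary glands and liver, and an FPKM of 0.539 (0.175 to 1.26) in the first. In that same library pepsin A, the other major enzyme of chief cells, had 1005640 fragments and gastricsin 104330. The pancreatic lipase gene PNLIP had 7, 1 and 0 fragments, and its neighbours at 106739 to 148423 on the same scaffold had 7, 0 and 0 (PNLIPRP1, annotated as inactive) and 1, 0 and 0 (PNLIPRP2). PNLIPRP3, on another scaffold, differed from these in having its highest count in salivary glands, with 1, 19 and 0 fragments and an FPKM of 1.43 in salivary glands. Colipase (CLPS) and CLPSL1, neighbours at 17559 to 33082 on scaffold NW_016564785.1, had 0 fragments in each library.

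CEL, the bile salt-activated lipase, was highest in liver. It had 4 fragments in small intestine, 12 in salivary glands and 582 in liver, where its FPKM was 17.0 (15.6 to 18.4), beside 0.126 (0.0343 to 0.323) and 0.428 (0.221 to 0.747). Liver was 86.0-fold above small intestine (33.4 to 317) and 32.2-fold above salivary glands (18.3 to 62.7). Of the 12 acinar markers, 3 were above an FPKM of 1 in liver. AMY2A (8.56, 5.39 and 16.3 in small intestine, salivary glands and liver) and a gene annotated as CTRB1 (4.24, 3.65 and 4.89) were highest in liver, and 6 markers had 0 fragments in it. The part of pancreatic tissue in the level of CEL was not tested.

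**Figure D4:**
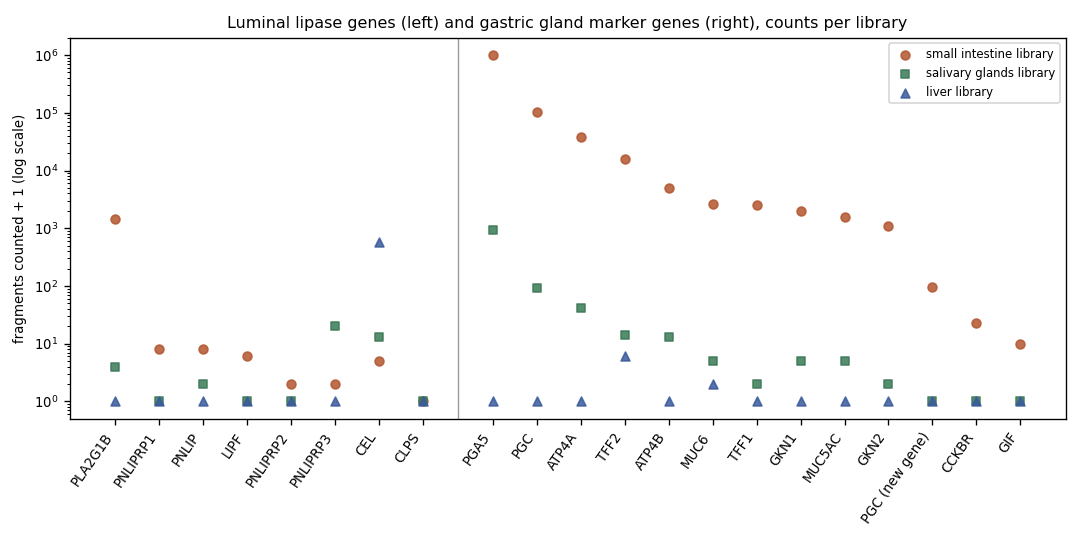
Fragments counted plus 1, on a log axis, for 8 luminal lipase genes (left) and 13 gastric gland marker genes (right) in the 3 libraries. In small intestine LIPF had 5 fragments beside 1005640 for pepsin A (PGA5), PLA2G1B had 1422, and CEL was highest in liver with 582.

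The genes named only as lipase members had low levels, with 4.36 as their highest FPKM. LIPH, a membrane-bound enzyme of the pancreatic lipase family that makes lysophosphatidic acid, had 117, 70 and 0 fragments and FPKMs of 4.36, 2.19 and 0 in small intestine, salivary glands and liver, so that small intestine was at least 66.0-fold and salivary glands at least 35.1-fold above liver. LIPN and LIPM, lipases known from the outer epidermis, had their lowest counts in salivary glands, with LIPN at 42, 5 and 30 fragments and LIPM at 17, 0 and 35. LIPN lies at 143011 to 197651 in a row with LIPF and LIPK on scaffold NW_016530946.1, and LIPK had 0 fragments in each library. LIPJ had 2 fragments, in salivary glands, and LIPI 0.

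Of the 11 genes classed as neutral lipid lipases, 4 are the gastric and pancreatic-type enzymes above. Of the other 7, which act inside cells, 6 had an FPKM above 1 in all 3 libraries, and DAGLA did in salivary glands alone. LIPA, the lysosomal acid lipase, had FPKMs of 5.82, 20.2 and 31.2, and both salivary glands (3.55-fold, 2.98 to 4.24) and liver (4.62-fold, 3.92 to 5.47) were called higher than small intestine. DAGLB, which makes 2-arachidonoylglycerol, was highest in liver at 20.2, with 8.61 and 6.34 in small intestine and salivary glands. Its paralog DAGLA had another pattern, with 51, 810 and 21 fragments and FPKMs of 0.775, 9.91 and 0.164. Salivary glands was 14.05-fold above small intestine (10.6 to 19.03) and 58.1-fold above liver (37.7 to 94.3) for DAGLA. Of the enzymes that break 2-arachidonoylglycerol down, MGLL had FPKMs of 10.5, 4.46 and 5.10 and was called higher in small intestine by 2.24-fold over salivary glands (1.88 to 2.67) and 2.56-fold over liver (2.18 to 3.01). ABHD6 stood at 11.3, 7.80 and 4.79 and was 2.19-fold higher in small intestine than liver (1.77 to 2.69). ABHD12 was level across the libraries, at 17.6, 19.97 and 17.6, with ratios between 1.06 and 1.18 in the 3 pairs.

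LIPE, hormone-sensitive lipase, gave different sizes by count and by FPKM. Its fragments were 188, 885 and 144 and its FPKMs 5.29, 10.5 and 2.38 in small intestine, salivary glands and liver. By counts salivary glands was 4.16-fold above small intestine (3.55 to 4.90) and 9.25-fold above liver (7.75 to 11.1), and by FPKM 1.98-fold and 4.39-fold. Count over FPKM, scaled by the fragment total of each library, gave 10179 bases in salivary glands, 3498 in small intestine and 4156 in liver. This value is not a transcript length, since in salivary glands it exceeded the annotated 9330 bases. Among members with at least 20 fragments in each library LIPE had the widest spread of it, 2.91-fold. The next was ASPG at 1.90-fold, and the smallest was LMF1 at 1.12-fold. For most of these members the value was largest in salivary glands, so that it also holds a factor common to the library. The direction was the same by both measures.

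**Figure D5:**
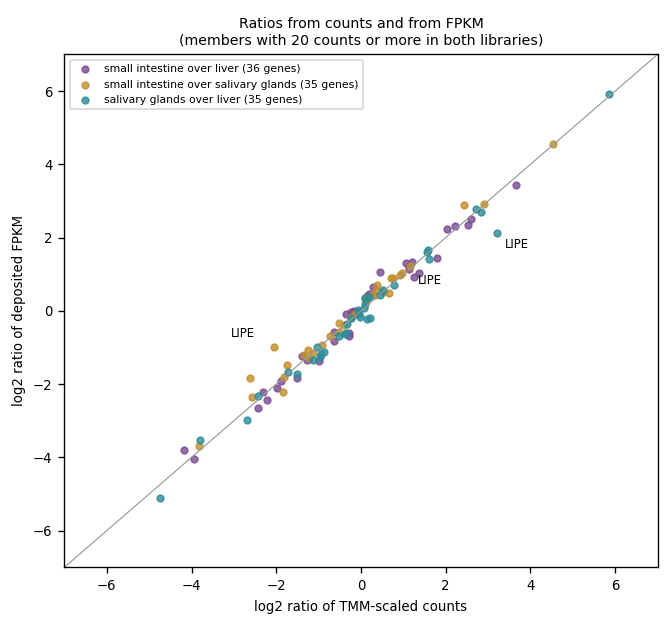
Log2 ratio of deposited FPKM against log2 ratio of TMM-scaled counts for members with 20 fragments or more in both libraries of a pair, with the diagonal drawn. Each point is 1 gene in 1 pair and LIPE is labelled, with FPKM ratios of 1.98 and 4.39 where the counts gave 4.16 and 9.25 for salivary glands over small intestine and liver.

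Partner proteins of the lipases showed their own pattern. LMF1, the chaperone that lipoprotein, hepatic and endothelial lipase need to fold, had FPKMs of 6.07, 28.1 and 9.27 in small intestine, salivary glands and liver and was called higher in salivary glands, by 3.56-fold over small intestine (2.95 to 4.30) and 2.93-fold over liver (2.54 to 3.39). The 3 lipases it serves had a summed FPKM of 5.07 in that library, the lowest of the 3, beside 62.4 and 32.6. LMF2 had no call in any pair, at 19.1, 15.8 and 12.1. PLAA, a ubiquitin-binding protein despite its name as an activator, was counted on 2 genes, between which fragments could be split, the first at 6.81, 4.78 and 12.1 and the second at 3.51, 4.59 and 5.26. PLA2R1, the receptor of secreted phospholipase A2, was highest in liver at 1.72, against 0.397 and 0.155. PLCL2, the 1 gene that the product names put in phospholipase C, belongs to a pair of proteins with no phospholipase activity. It had FPKMs of 5.88, 0.774 and 1.17 and was called 7.49-fold higher in small intestine than salivary glands (5.15 to 11.2) and 5.79-fold higher than in liver (4.34 to 7.81). PLCL1 followed the same order at 1.13, 0.131 and 0.416.

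Phosphoinositide-specific phospholipases C cut phosphatidylinositol bisphosphate to inositol trisphosphate and diacylglycerol. The word rule missed 14 such genes, which were found by product name after values had been seen, and 12 of them had a fragment. Of these 12, 7 were called higher in small intestine than liver and 2 lower, where 20.9 and 18.8% of all genes were, with a median log2 ratio of 1.33 beside 0.04 for all genes. Against salivary glands 1 was higher and 1 lower in small intestine, where 15.8 and 12.2% of all genes were. PLCG1 had an FPKM of 21.1, 9.39 and 6.45, and PLCD3, a form found in many epithelia, 20.4, 11.9 and 2.31.

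The 6 lists of genes that act before or after these enzymes were read as well, 88 genes in all with a fragment in small intestine or liver. Of these 88, 29 were higher in small intestine and 29 higher in liver (20.9 and 18.8% of all genes). Of 86 between small intestine and salivary glands, 25 were higher in small intestine and 10 higher in salivary glands (15.8 and 12.2% of all genes), a split that became 19 and 21 by library size alone. Of 86 between salivary glands and liver, 18 were higher in salivary glands and 25 in liver (19.0 and 19.6% of all genes). These shares of all genes are also the background for the counts of each single list.

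Genes of lipolysis in the bloodstream were more often on the liver side. In the list, 8 of 14 were higher in liver than small intestine and 2 lower, with a median log2 ratio of liver over small intestine of 1.53, a count of 0 set to 3 counts. The 2 genes of the list with the highest FPKM were APOE, a ligand of lipoprotein receptors, at 66.1, 6.56 and 3937 in small intestine, salivary glands and liver, and APOC3, an inhibitor of LPL, at 0, 0 and 336. In the fat absorption list 7 of 11 genes were higher in liver than small intestine and 1 lower, with a median of 1.71. FABP1 and FABP2, with 0 fragments in each library, were not among the 11. APOA1 had 4.43, 0.387 and 453, and APOB 0.0223, 0 and 171. APOB and MTTP of this list are also among the enterocyte markers, and APOA1 is among the hepatocyte markers. Hepatocyte markers summed to FPKMs of 109, 123 and 24484 beside these lists, and their part was not tested.

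The lists of stored fat and membrane lipid were divided. Of 16 lipid droplet genes, 6 were higher in small intestine and 3 in liver, and DGAT2, which makes triglyceride, had 4.47, 0.427 and 49.2 while the droplet coat protein PLIN2 lay at 45.1, 44.9 and 48.0. Of 15 genes that add acyl chains to lysophospholipids or glycerol phosphate, 7 were higher in small intestine and 5 in liver. AGPAT2 stood at 18.2, 14.5 and 51.0 and LPCAT3 at 45.7, 47.5 and 50.1. The next list held 16 genes around the making of prostaglandins and leukotrienes from arachidonic acid. Of these, 7 were higher in small intestine than salivary glands and 1 lower, and 7 higher and 5 lower against liver. In that list ALOX12, a lipoxygenase, stood at FPKMs of 109, 142 and 306 on 441, 628 and 1938 fragments. PTGES3, a heat shock cochaperone with prostaglandin E synthase activity, stood at 81.1, 77.0 and 175 on 858, 1001 and 2631 fragments. The gene counted as ALOX12 thus had fewer fragments and a higher FPKM, which goes with a shorter counted length. Whether that gene is complete was not tested. Of 18 genes of phosphoinositide signalling, 6 were higher in small intestine and 2 in liver, with a median log2 ratio of 0.35, and DGKD, a diacylglycerol kinase, had 13.9, 38.8 and 24.5 and the lipid kinase PIP5K1A 13.2, 12.1 and 30.0.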

How the data were processed

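RNA of 3 tissues of 1 animal was sequenced by the authors on an Illumina instrument, with 1 library per tissue. Reads were filtered, aligned with TopHat2 to the M. javanica genome without regard to strand, and fragments outside known genes were joined by Cufflinks into new ones. Each deposited count is a whole number of fragments, the deposited FPKM was made by the authors with RSEM, and a deposited score, the count times 1 factor per library, was read only for checking. The build and the counting tool are not given in the sources used here.

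Members were the genes whose NR entry contains "lipase" and were classed by ordered word rules on the product name. Genes are named by KEGG symbol or, where that names a paralog, by product. The members and lists were chosen with earlier results of these data known, and the product-name rules that found list genes and the list of phosphoinositide phospholipases C were written after values were seen. The named genes are the 4 with the highest FPKM in each class, a set of well-known lipases and the 2 highest of each list. PLA2G3, PLA2G2C, PLA2G2D, PLA2G2E, PLA2G2F, PLA2G5, DAGLA, LYPLAL1, DDHD1, PLD2, PNPLA1, PNPLA3, PLA2R1, PLCL1, PNLIPRP3, CLPSL1, LIPK, LIPI, PLCG1, PLCD3 and the markers were picked for naming once values were known.

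Counts of each pair of libraries were scaled by TMM (edgeR 4.0.16, R 4.3.3) and tested by the MA-plot test that DEGseq uses, rewritten in Python 3.11.15 with scipy 1.17.1, over all genes with a count in either library, taking 1 in place of 0, with Storey q-values (lambda 0.5) under 0.005 and an absolute log2 ratio of at least 1. Since no group has a replicate, a call compares 2 libraries and no p-value is given. On simulated counts of 20641 genes for small intestine against liver, with 200 genes over 100 expected counts changed 4-fold, this test recovered 100% with 0 other calls, and the exact test of edgeR, given a biological coefficient of variation of 0.4, recovered 0%. Over 20644 genes with a 64-fold change both recovered 100%. The simulated counts held Poisson counting noise only, which is the noise that the MA-plot test assumes. The simulation therefore checks the rewritten code and cannot show how either test does with differences between animals. Ratios carry 95% intervals from the exact binomial split of the 2 counts, and FPKM intervals are exact Poisson intervals of the count. A count of 0 was limited at 3 counts. Fragments without molecular identifiers are not independent molecules, so intervals and limits cover counting error only.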

Additional observations from a re-analysis of the deposited data

How the results depend on the processing

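No paired analysis was possible because each tissue has 1 library, and for the same reason DESeq2 was not run and no replicate could be left out. With edgeR's exact test and an assumed coefficient of variation of 0.4, members called higher numbered 11 (small intestine over liver), 8 (liver over small intestine), 9 (small intestine over salivary glands), 3 (salivary glands over small intestine) and 10 (liver over salivary glands), and partner genes 13, 14, 6 and 3 in the first 4 of these, 6 for salivary glands over liver and 16 for liver over salivary glands. By that test 7, 3 and 7 members stood above both other libraries in small intestine, salivary glands and liver. At a log2 ratio of at least 2, members numbered 12 for liver over small intestine, 9 for salivary glands over small intestine and 10 for liver over salivary glands, and partner genes 16, 14, 4 and 10 for liver over small intestine, small intestine over salivary glands, salivary glands over small intestine and salivary glands over liver. The fold alone gave 22 members for small intestine over salivary glands. FPKM ratios with a pseudocount of 1 gave 15 for small intestine over liver and 10 for salivary glands over small intestine. Library size alone gave 21 partner genes for salivary glands over small intestine. An FPKM threshold of 5 left 21, 19 and 25 members in small intestine, salivary glands and liver, and without its highest member the family held 0.0706, 0.0653 and 0.0774% of the FPKM. Other counts of calls and of expressed members stayed within 1.5 times. Of 144 single ratios of members with an FPKM above 1 none with a call changed direction, and 45 left their counting interval with library size, 0 with relative log expression factors, and 61 and 21 with FPKM pseudocounts of 1 and 0.1. The cause was not tested.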
